A study of Solenopsis invicta with 64 samples.

Results

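Ovaries of polygyne fire ant gynes homozygous for the Sb variant of the social supergene were compared with ovaries of polygyne gynes homozygous for SB. The comparison took every polygyne homozygote ovary library but 1, which left 15 of the 64 libraries of the series, 8 Sb/Sb and 7 SB/SB. The SB/SB ovary of animal 104D was left out because it held 73573 counts, against 10.1 to 20.5 M in the others. A gyne is a female of the reproductive caste, winged until she has mated. All the animals, of *Solenopsis invicta*, were unmated and labelled as reproductively mature, were caught in the wild at their mounds on flight days and were frozen there. Each library held the RNA of a single ovary, converted to cDNA by Smart-seq2, a PCR-based method without molecular identifiers, so intervals and bounds below cover counting error only. The groups therefore shared social form, caste, tissue and collection and differed in supergene genotype. The other ovaries, polygyne SB/Sb and monogyne SB/SB, and the brains of the same animals are used only where named. The study asked how expression in gynes goes with social form and with supergene genotype.

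A supergene is a group of neighbouring genes that pass to the offspring together, and in the fire ant it lies on chromosome 16. Its variants, SB and Sb, differ by inversions that suppress recombination between them, and Sb, which occurs in colonies with several queens, hardly recombines at all because Sb/Sb females rarely reproduce. Colonies with a single queen carry SB only. An ant ovary is a set of ovarioles in which oocytes grow beside nurse cells that supply them with RNA, inside a layer of follicle cells. Growing oocytes take up yolk protein through the vitellogenin receptor. Most genes below have only a locus symbol in the sources used here, so they are given with their place in the genome and without a role.

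The libraries carried ovary transcripts in all 15 cases, but the ovaries were not alike within a genotype. The vitellogenin receptor gene LOC105200757 on chromosome 2 ranged from 11.5 to 703 counts per M (CPM) before scaling, against 0 to 15.0 in the brains of the same animals. Its lowest value, in the Sb/Sb ovary 19G, thus lay within the range of the brains. LOC105194572 and LOC105193824, which earlier work on these data had found higher in ovaries, separated the tissues. They were at 344 to 3660 and 74.2 to 1679 CPM in the ovaries, against 4.90 to 29.0 and 1.51 to 16.7 in the brains. LOC105204669, abundant in the brains (289 to 2142 CPM), reached at most 0.327 CPM in an ovary. The leading principal component, with 34.2% of the variance, did not differ detectably between the genotypes (exact two-sided permutation test over 6435 splits, p = 0.419, adjusted over 5 library measures 0.524). The 6 ovaries with the most vitellogenin receptor RNA, at 177 CPM or more, were also the 6 at the low end of that component, and they comprised 3 of each genotype. The next component, with 26.3%, placed every Sb/Sb ovary below every SB/SB ovary (same exact test, p = 0.000311, adjusted 0.000777). The Sb/Sb ovary 19G stood apart from the rest. In it 451 genes lay over 2-fold above all other 14 ovaries and 327 lay over 2-fold below them. Its 10 most abundant genes took 18.4% of the counts (2.99 to 7.98% elsewhere). The vitellogenin receptor was lowest in it, as were LOC105194572 and LOC105193824, at 435 and 94.0 CPM after scaling. The next lowest ovaries held 1339 and 458 CPM of them. Counts are therefore also given without 19G. In whole organs, fewer cells of a type and less RNA per cell cannot be told apart.

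Sb/Sb ovaries had more higher than lower genes, and the higher genes were mostly scarce while the lower ones were mostly abundant. Of 10227 genes tested with edgeR's quasi-likelihood test (Benjamini-Hochberg adjusted p under 0.05), 459 were higher in Sb/Sb (4.49%) and 216 were lower (2.11%), 6.6% in all. The higher genes had a median difference of 2.8-fold and a median level of 11.1 CPM over the 15 ovaries. The lower genes had a median difference of 1.63-fold and a median level of 100 CPM, against 43.2 CPM over all tested genes. Under 10 CPM, 218 of 2758 tested genes were higher and 20 lower (8.63% called). Between 10 and 100 CPM the counts were 207 and 88 of 4518 (6.53%), and above 100 CPM they turned to 34 higher and 108 lower of 2951 (4.81%). All tested genes, called or not, also shifted with level. Their median log2 fold change was 0.535 under 1 CPM, 0.431 from 1 to 10 and -0.021 from 10 to 100 CPM. It was -0.11 from 100 to 1000 and 0.032 over 1000 CPM. Past a fitted 4-fold difference lay 209 tested genes, 117 called higher and 14 lower. Past 16-fold lay 43, 37 called higher and 3 lower. Some of these genes had few or no counts in 1 genotype and passed the filter on low counts only through the other. The counts past a given fold are therefore a description. Without 19G, 410 genes were higher and 268 lower (10147 tested), with medians of 2.61-fold and 1.61-fold and, above 100 CPM, 29 higher and 144 lower.

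**Figure D1:**
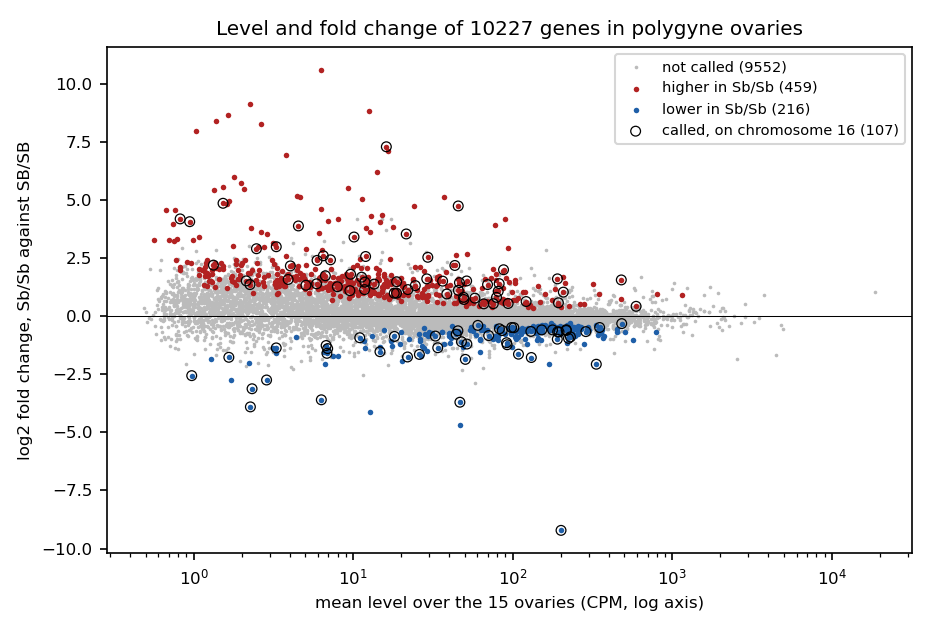
Each point is 1 of the 10227 tested genes, placed by its mean level over the 15 ovaries (CPM, log axis) and its fitted log2 fold change, Sb/Sb against SB/SB. Red points are the 459 genes called higher, blue points the 216 called lower, grey points were not called, and rings mark the 107 called genes of chromosome 16. Red points spread over low levels with large differences, and blue points gather at high levels with small ones.

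The number of calls rested in part on single libraries. The total was 415 without the SB/SB ovary 20D, 425 without 19D, 439 without the Sb/Sb ovary 15G and 441 without 16G, and it reached 1007 without the Sb/Sb ovary 30G. The lower genes were affected most, with 406 without 30G and between 104 and 140 without any 1 of 20D, 19D, 107E, 15G, 30E, 16G, 107G, 16D and 15D. In all 15 fits that left out 1 ovary, 260 of the 459 higher genes and 92 of the 216 lower genes kept their call. Higher genes made up 68.0% of the calls, 79.7% when 104D was added and 51.3% with voom and sample quality weights. DESeq2 called 968 higher and 537 lower.

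The values of the 8 Sb/Sb and the 7 SB/SB ovaries did not overlap for 298 genes (2.91%), of which 184 were called higher and 82 called lower. The number of genes with at least 1 count did not overlap either. It ran from 11837 to 12523 in Sb/Sb and from 11528 to 11794 in SB/SB ovaries (exact two-sided permutation test, p = 0.000311, adjusted 0.000777). Library totals did not differ detectably (same exact test, p = 0.378). With each library scaled down to the depth of the shallowest, 10.1 M, the expected number of genes detected was 11755 to 12158 in Sb/Sb and 11307 to 11556 in SB/SB. The groups again did not overlap, and the exact test gave p = 0.000155, the smallest that the 6435 splits allow.

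Some genes had few or no counts in SB/SB ovaries and more in Sb/Sb ovaries. Taking genes with a mean under 0.5 CPM in 1 genotype and at least 2 CPM in the other, 36 of the tested genes qualified, and 29 of them were called higher in Sb/Sb and 2 lower (25 and 3 without 19G). The choice by level fixes that such genes differ, so these counts are a description. Chromosome 16, with 762 of the 10227 tested genes, held 3 of the 29 and 1 of the 2. Values after ± are the standard deviation (SD) over the ovaries of a group for a level and the standard error (SE) for a log2 fold change, and levels are CPM after TMM scaling.

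LOC105205139, a protein-coding gene on chromosome 2, had the smallest p of all tested genes. Its SB/SB ovaries ran from 0 over a median of 0.0587 to 0.124 CPM and its Sb/Sb ovaries from 15.1 over 23.6 to 40.6 CPM. Every Sb/Sb ovary lay over 100-fold above every SB/SB ovary, with 2917 counts in the 8 against 5 in the 7. The log2 fold change was 8.83 ± 0.54 (adjusted p = 2.33e-07). The neighbouring gene in the order of chromosome 2, LOC105206713, had a single count in the SB/SB group, in 1E, and 1.77 to 11.1 CPM in Sb/Sb (median 4.82). The ratio of the pooled levels was 580, with an exact 95% counting interval of 104 to 22930. Also on chromosome 2, LOC105196479 was at 0.744 to 5.88 CPM in SB/SB (median 1.26, the highest again 1E) and 42.3 to 136 CPM in Sb/Sb (median 60.2), a log2 fold change of 5.14 ± 0.48 (adjusted p = 1.4e-05). The groups did not overlap for any of these genes, and 19G was the highest Sb/Sb ovary for each of them. LOC105205139 and LOC105206713 passed the filter on low counts only through their Sb/Sb values, so that they were called higher is no result in itself.

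Of the tested genes, 5 had no count in any SB/SB ovary and 0 had none in any Sb/Sb ovary. Such genes passed the filter on low counts only through their Sb/Sb values, so that they were called higher is no result in itself. LOC105204491 on chromosome 4 held 1418 counts over the 8 Sb/Sb ovaries, from 3.49 CPM in 104G over a median of 10.1 to 30.1 in 19G, and was at least 441-fold higher against a floor of 3 counts over the SB/SB group. LOC105194018 on chromosome 3 ran from 2.66 to 8.73 CPM (median 3.62) and was at least 162-fold higher. The unplaced LOC105206806 ran from 0.383 CPM in 30G to 8.85 in 104G (median 1.82) and was at least 138-fold higher. Their adjusted p-values were 0.000132, 2.57e-05 and 0.0029. LOC105206806 passed the filter in 8 of the 15 fits that left out an ovary and was called in those 8, and the others were called in all 15. The unplaced LOC105203531, at 0.606 to 6.05 CPM in Sb/Sb (median 1.93), was at least 97.1-fold higher (adjusted p = 0.000812). Further genes with low SB/SB levels were LOC105198369 on chromosome 13, at 0.0488 ± 0.0419 and 2.47 ± 1.23 CPM (log2 5.41 ± 0.53, adjusted p = 1.89e-05), and the pseudogene LOC105207279 on chromosome 6, at 0.284 ± 0.191 and 4.05 ± 0.593 CPM (log2 3.80 ± 0.38, adjusted p = 2.4e-05). The unplaced LOC105205051 was at 0.427 ± 0.125 CPM in SB/SB and 5.0 ± 1.03 in Sb/Sb (log2 3.53 ± 0.28, adjusted p = 2.23e-06). For these 3 genes, too, every Sb/Sb ovary was above every SB/SB ovary. They also passed the filter only through their Sb/Sb values, so their calls are likewise no result in themselves.

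**Figure D2:**
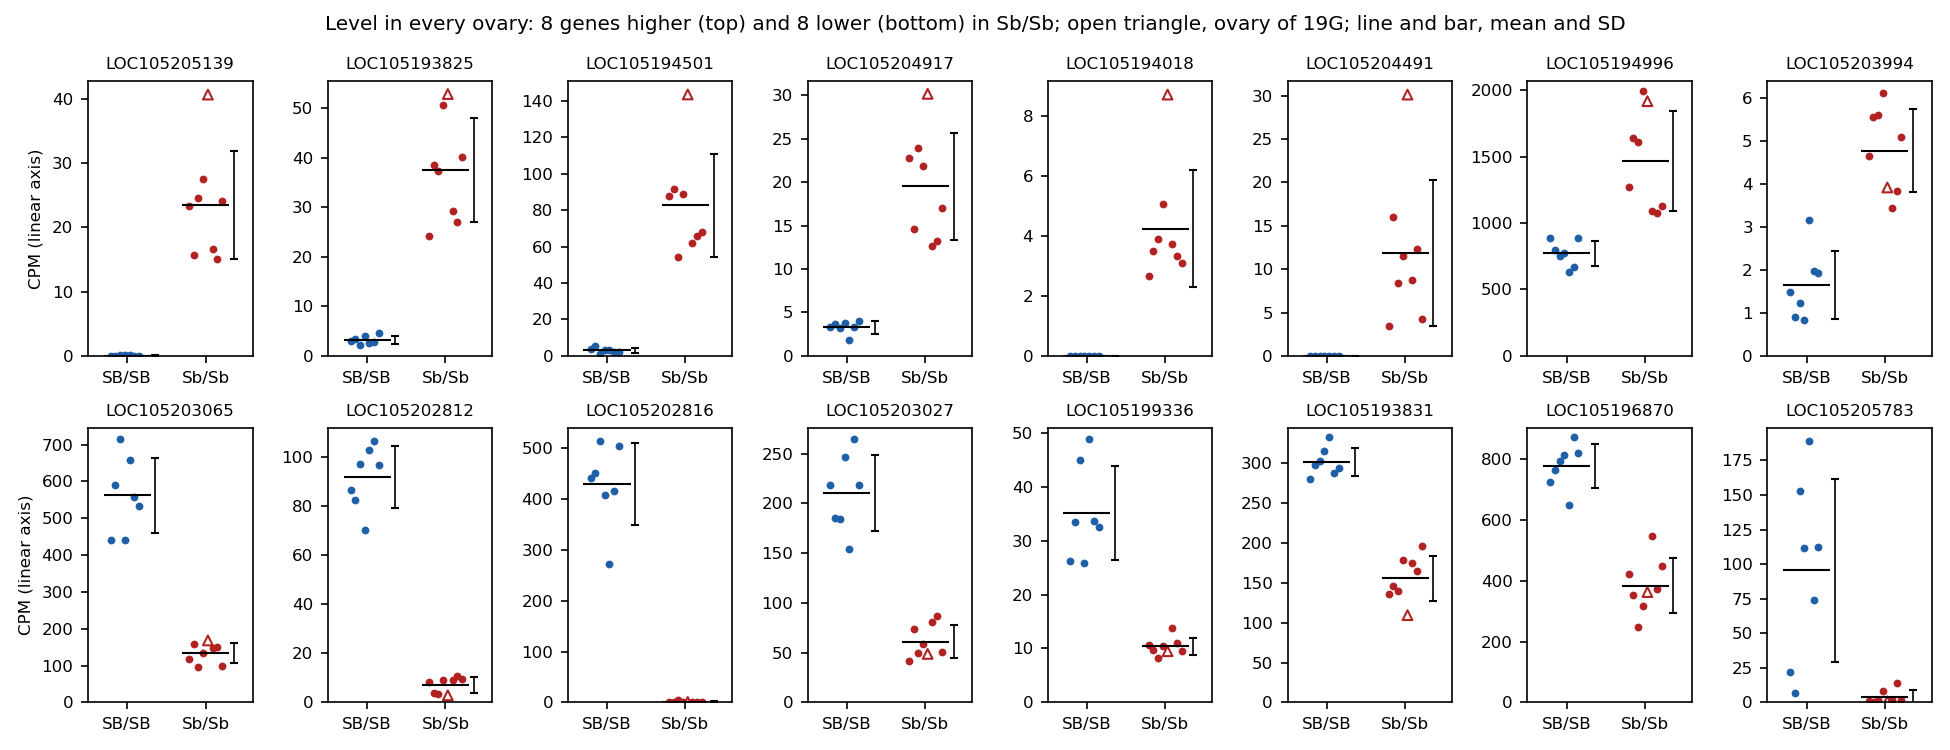
Each point is the level of a gene in 1 ovary (CPM after TMM scaling, linear axis), with the mean and SD of each genotype beside the points (n = 7 SB/SB, n = 8 Sb/Sb). The open triangle is the Sb/Sb ovary 19G, the top row shows 8 genes higher in Sb/Sb and the bottom row 8 genes lower. The genotypes overlap in 1 of the 16 panels, LOC105205783, where the SB/SB ovary 15D falls within the range of the Sb/Sb values.

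Differences were most frequent on chromosome 16, and there they ran in both directions. Of its 762 tested genes, 107 were called (14%), 59 higher and 48 lower, against 474 of the 8155 genes placed on other chromosomes (5.81%), 316 higher and 158 lower. No other chromosome was above 7.79%, the share of chromosome 15, and the lowest was 3.78% on chromosome 13. The genes without a place gave 94 calls among 1310, 84 of them higher. Without 19G the count on chromosome 16 was 113 of 758, and it lay between 85 and 140 when any 1 ovary was left out. Whether reads of the SB and Sb variants were aligned and counted equally well was not tested, since the genome build and counting options are not known.

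Within chromosome 16 the calls were more frequent in 1 stretch of the gene order. Among the genes after place 400 and up to place 1200, 89 of 440 tested genes were called (20.2%), 45 higher and 44 lower. Among places 1 to 400, 17 of 292 were called (5.82%), 14 higher and 3 lower, and beyond place 1200 it was 1 of 30. The limits of this stretch were chosen in earlier work on these data after values had been seen, so the contrast is a description. The stretch was uneven. Its densest block of 100 places was 701 to 800, with 23 of 70 genes (32.9%), 9 higher and 14 lower, and its sparsest was 501 to 600, with 2 of 41 (4.88%). Neighbours in the order could move in opposite directions. Of 7 runs of at least 3 adjacent called genes, the 6 others held both directions, and only LOC105199315 to LOC105199317 were all higher. The longest runs had 4 genes, LOC105199325 to LOC105199332 with 2 higher and 2 lower, and LOC105203029 to LOC105206510 with 1 higher and 3 lower. Outside the stretch, LOC105204788 at place 252 was at 13.4 ± 3.74 CPM in SB/SB and 29.5 ± 7.01 in Sb/Sb (log2 1.14 ± 0.21, adjusted p = 0.00453). LOC105203131 at place 146 was at 7.18 ± 1.80 and 15.8 ± 3.77 CPM (log2 1.14 ± 0.22, adjusted p = 0.00512), and both were higher in Sb/Sb.

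**Figure D3:**
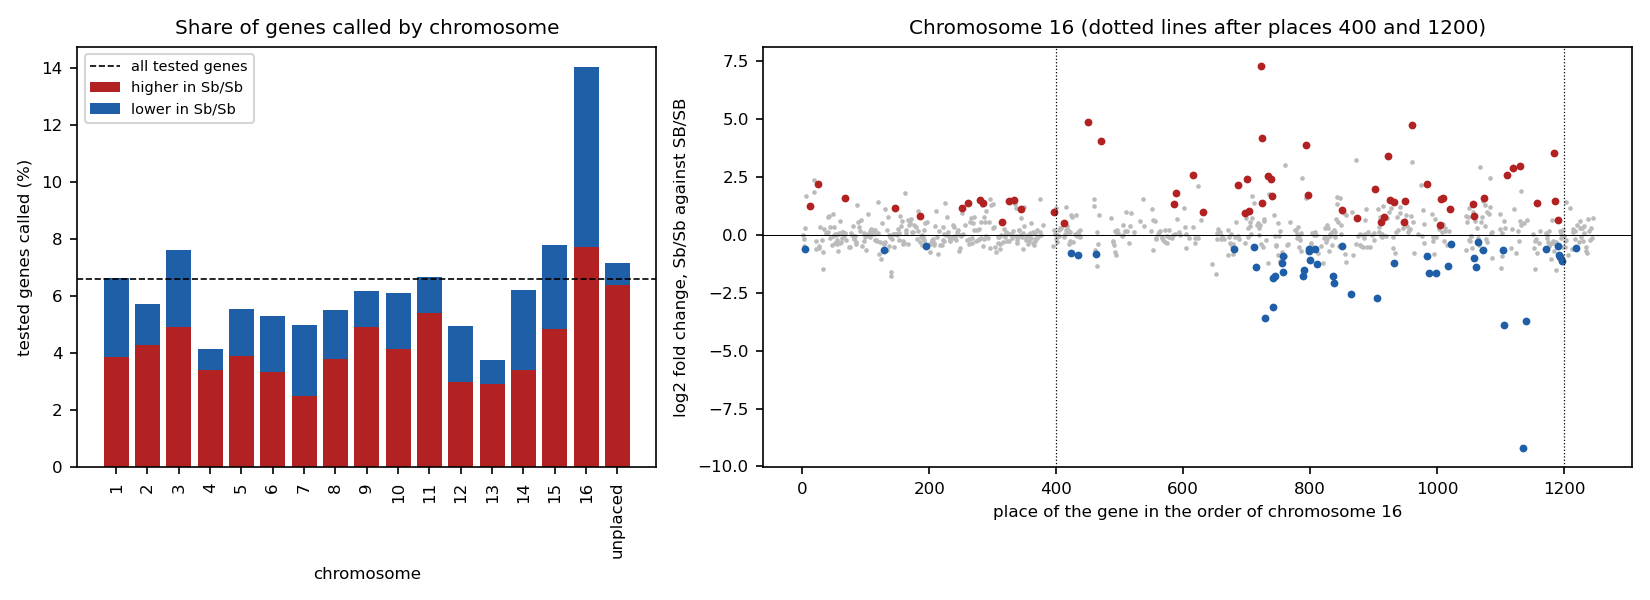
Left, the share of tested genes called on each chromosome (%), split into higher (red) and lower (blue) in Sb/Sb; the dashed line is the share over all tested genes, 6.6%, and chromosome 16 reaches 14%. Right, each tested gene of chromosome 16 by its place in the gene order and its log2 fold change, with called genes coloured; red and blue points alternate between the dotted lines after places 400 and 1200.

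Among the higher genes of chromosome 16, LOC105193825 had the smallest p. Its SB/SB ovaries ran from 2.27 over a median of 3.03 to 4.58 CPM and its Sb/Sb ovaries from 24.2 over 37.9 to 52.9 CPM. The groups did not overlap, and the log2 fold change was 3.53 ± 0.24 (adjusted p = 4.54e-07). LOC105194501 ran from 1.30 to 5.70 CPM in SB/SB (median 3.09) and from 54.0 to 143 CPM in Sb/Sb (median 78.0), a log2 fold change of 4.74 ± 0.33 (adjusted p = 6.24e-07). Its highest value came from 19G, and without that ovary the log2 fold change was 4.59. The long non-coding RNA gene LOC105204917 ran from 1.80 to 3.99 CPM in SB/SB (median 3.34) and from 12.6 to 30.2 CPM in Sb/Sb (median 19.5), a log2 fold change of 2.56 ± 0.25 (adjusted p = 1.89e-05). All 3 genes lay in that stretch.

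Of the 10 lower genes with the smallest p whose groups did not overlap, 9 lay on chromosome 16. Of all 216 lower genes 48 lay there, and of all 10227 tested genes 762. Among the 10 higher genes chosen by the same rule, only LOC105193825, LOC105194501 and LOC105204917 did. LOC105203065 ran from 442 to 714 CPM in SB/SB ovaries (median 558) and from 95.3 to 168 CPM in Sb/Sb ovaries (median 141). It fell by 2.07 ± 0.15 on the log2 scale (adjusted p = 9.48e-07). LOC105202812 ran from 70.5 to 107 CPM in SB/SB (median 96.6) and from 2.89 to 10.7 CPM in Sb/Sb (median 8.66), a fall by 3.70 ± 0.29 (adjusted p = 2.2e-06). LOC105203027 ran from 154 to 265 CPM in SB/SB (median 218) and from 41.5 to 86.4 CPM in Sb/Sb (median 54.4), and it fell by 1.78 ± 0.18 (adjusted p = 1.89e-05). Each of these genes was still transcribed in every Sb/Sb ovary.

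The long non-coding RNA gene LOC105202816, 5 places before LOC105202812 on chromosome 16, had few or no counts in Sb/Sb ovaries. In SB/SB ovaries it ran from 273 CPM in 1E over a median of 441 to 514 CPM. Of the 8 Sb/Sb ovaries, 107G, 5G and 30G had no count of it, 104G, 20I, 16G and 19G had 0.0466 to 0.963 CPM, and 15G had 3.89 CPM. The groups held 50405 and 90 counts, and the log2 fold change was -9.22 ± 0.89 (adjusted p = 1.88e-05); DESeq2 gave -4.30 and did not call it (adjusted p = 0.0622). LOC105199837, at place 1106, fell from 4.53 ± 2.36 to 0.293 ± 0.247 CPM (log2 -3.91 ± 0.54, adjusted p = 0.000515), and LOC105199321, at place 729, from 12.4 ± 5.15 to 1.01 ± 1.08 CPM (log2 -3.60 ± 0.71, adjusted p = 0.00667). Smaller falls with no overlap were found for LOC105199336 (35.1 ± 8.75 to 10.4 ± 1.65 CPM, log2 -1.76), LOC105193228 (50.3 ± 9.76 to 19.6 ± 2.82, log2 -1.36), LOC105193834 (129 ± 23.8 to 58.5 ± 13.9, log2 -1.14) and LOC105193831 (302 ± 17.8 to 155 ± 28.0, log2 -0.96). Their adjusted p-values were between 2.4e-05 and 0.000577. All these genes kept their call in each of the 15 fits that left out an ovary. LOC105202816, LOC105199837 and LOC105199321 passed the filter on low counts only through their SB/SB values. That they were called lower, also in the 15 fits, is therefore no result in itself.

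The lower genes off chromosome 16 included moderate falls of abundant transcripts. LOC105196870 on chromosome 6 ran from 648 to 870 CPM in SB/SB (median 793) and from 248 to 548 CPM in Sb/Sb (median 368), without overlap, and fell by 1.02 ± 0.14 on the log2 scale (adjusted p = 0.000536). LOC105199110 on chromosome 2 went from 985 ± 129 to 613 ± 178 CPM (log2 -0.68 ± 0.18, adjusted p = 0.0314) and LOC105192985 on chromosome 3 from 628 ± 120 to 395 ± 109 CPM (log2 -0.67 ± 0.18, adjusted p = 0.0396). These 2 genes overlapped between the genotypes and kept their call in 6 and 4 of the 15 fits that left out an ovary. LOC105206492 on chromosome 16, at 540 ± 43.0 and 431 ± 32.9 CPM (log2 -0.32 ± 0.08, adjusted p = 0.0308), did not overlap but also kept its call in only 6. A pair of genes fell by more and with a wide spread. LOC105205783 on chromosome 5 ran from 7.16 to 189 CPM in SB/SB (median 112) and from 0.187 to 14.3 CPM in Sb/Sb (median 1.90), a log2 fold change of -4.68 ± 0.86 (adjusted p = 0.00406). LOC105203696 on chromosome 3 ran from 0.495 to 65.8 CPM in SB/SB (median 8.61) and from 0 to 5.49 CPM in Sb/Sb (median 0.419). Its adjusted p was 0.0492, and 4 of the 15 fits called it.

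Among the abundant genes that rose, LOC105194996 on chromosome 2 led. It ran from 634 to 888 CPM in SB/SB (median 775) and from 1074 to 1997 CPM in Sb/Sb (median 1439), without overlap, and rose by 0.92 ± 0.16 on the log2 scale (adjusted p = 0.0029). On chromosome 16 the long non-coding RNA gene LOC105193219 and the protein-coding LOC105193214, 3 places before it, both rose. LOC105193219 went from 235 ± 61.3 to 692 ± 257 CPM (log2 1.56 ± 0.25, adjusted p = 0.00168) and LOC105193214 from 502 ± 60.7 to 672 ± 91.6 CPM (log2 0.42 ± 0.11, adjusted p = 0.0314). LOC105205791 on chromosome 5 went from 533 ± 74.6 to 1036 ± 459 CPM (log2 0.96 ± 0.24, adjusted p = 0.0261). LOC105193214 and LOC105205791 overlapped between the genotypes and were each called in 11 of the 15 fits, while LOC105193219 overlapped by 1 ovary of each genotype (331 CPM in 5G and 338 in 107E) and was called in all 15.

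Long non-coding RNA genes were called more often than protein-coding ones. Of 118 tested, 26 were called (22%), 23 higher and 3 lower, against 549 of 8790 protein-coding genes (6.25%), 345 higher and 204 lower. The gap was present at matched levels, with 24.3% against 8.10% under 10 CPM and 20.7% against 6.45% between 10 and 100 CPM, on 74 and 29 long non-coding RNA genes. Without 19G it was 27 of 113 against 559 of 8737. The sources used here do not say whether reads were counted by strand, so reads of a non-coding gene and of an overlapping partner on the opposite strand cannot be told apart.

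The genes known by a synonym were few, and 1 of them passed the test. LOC105203994 on chromosome 6, which encodes an odorant-binding protein (a small secreted carrier of odour molecules, best known from antennae), ran from 0.839 to 3.16 CPM in SB/SB (median 1.49) and from 3.44 to 6.12 CPM in Sb/Sb (median 4.88). The groups did not overlap, the log2 fold change was 1.53 ± 0.30 (adjusted p = 0.00696), and all 15 fits that left out an ovary called it. The same gene stood at 883 to 2515 CPM in the brains of these animals, so its ovary level was low in both genotypes, and what brain RNA may have added was not tested. The other odorant-binding protein gene, LOC105195107, was at 2.37 ± 0.958 and 5.57 ± 7.59 CPM and was not called (log2 1.23 ± 0.60, adjusted p = 0.223). Its Sb/Sb mean rested on 19G, with 23.9 CPM, and was 2.95 CPM without it.

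Neither insulin receptor gene passed the test. InR-1, LOC105207962, was at 3.32 ± 3.84 CPM in SB/SB and 4.2 ± 3.12 in Sb/Sb (log2 0.34 ± 0.68, adjusted p = 0.813), and InR-2, LOC105195102, at 26.3 ± 25.7 and 20.5 ± 15.6 (log2 -0.35 ± 0.62, adjusted p = 0.783). Both are receptors of the pathway that couples nutrition to growth and egg production in insects. The vitellogenin receptor gene LOC105200757 was at 247 ± 253 and 176 ± 211 CPM (log2 -0.49 ± 0.75, adjusted p = 0.744), and its spread within each genotype was as wide as its mean. The detoxification genes also missed the threshold. LOC105197561, GSTS1, a glutathione S-transferase that conjugates reactive compounds, was at 468 ± 76.1 and 991 ± 867 CPM (log2 1.08 ± 0.36, adjusted p = 0.0773), with 3092 CPM in 19G and an Sb/Sb mean of 690 without it. LOC105195645, CYP6A14, a cytochrome P450 gene, was at 27.3 ± 21.1 and 67.8 ± 132 CPM (log2 1.32 ± 0.95, adjusted p = 0.423), with 392 CPM in 19G and a log2 fold change of -0.33 without it. CYP4AB2 and the gene labelled Ag5 had too few counts to be tested.

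In the other ovary groups of the series, heterozygotes stood between the polygyne homozygotes for each named gene that was called. Of the 41 named genes that were called, all 41 had an SB/Sb mean between the polygyne SB/SB and Sb/Sb means, from 33.1% of the way for LOC105203531 to 89.7% for LOC105196479. These positions are a description, since the homozygote difference had chosen the genes. Among named genes that were tested and not called, the SB/Sb mean lay outside the homozygote means for LOC105200757, LOC105207962, LOC105195102 and LOC105195107. On a scale common to 31 ovaries, LOC105205139 averaged 0 CPM in monogyne SB/SB, 0.0468 ± 0.0482 in polygyne SB/SB, 11.6 ± 3.72 in SB/Sb and 23.0 ± 8.07 in Sb/Sb. LOC105193825 averaged 3.36 ± 0.831, 3.20 ± 0.803, 19.3 ± 7.25 and 36.9 ± 10.2 CPM in the same order. Among the lower genes LOC105203065 averaged 567 ± 34.0, 556 ± 102, 276 ± 76.6 and 132 ± 26.9 CPM. LOC105202816 averaged 388 ± 111, 425 ± 80.9, 123 ± 76.5 and 0.686 ± 1.32 CPM, which put SB/Sb 71.1% of the way from polygyne SB/SB to Sb/Sb. For each of these 4 genes the SB/SB means of the social forms differed by less than 1 SD of the polygyne group. That did not hold for all named genes, since LOC105199336 averaged 21.2 ± 3.0 CPM in monogyne and 34.7 ± 8.64 in polygyne SB/SB ovaries, and LOC105204917 4.42 ± 1.27 and 3.27 ± 0.718.

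**Figure D4:**
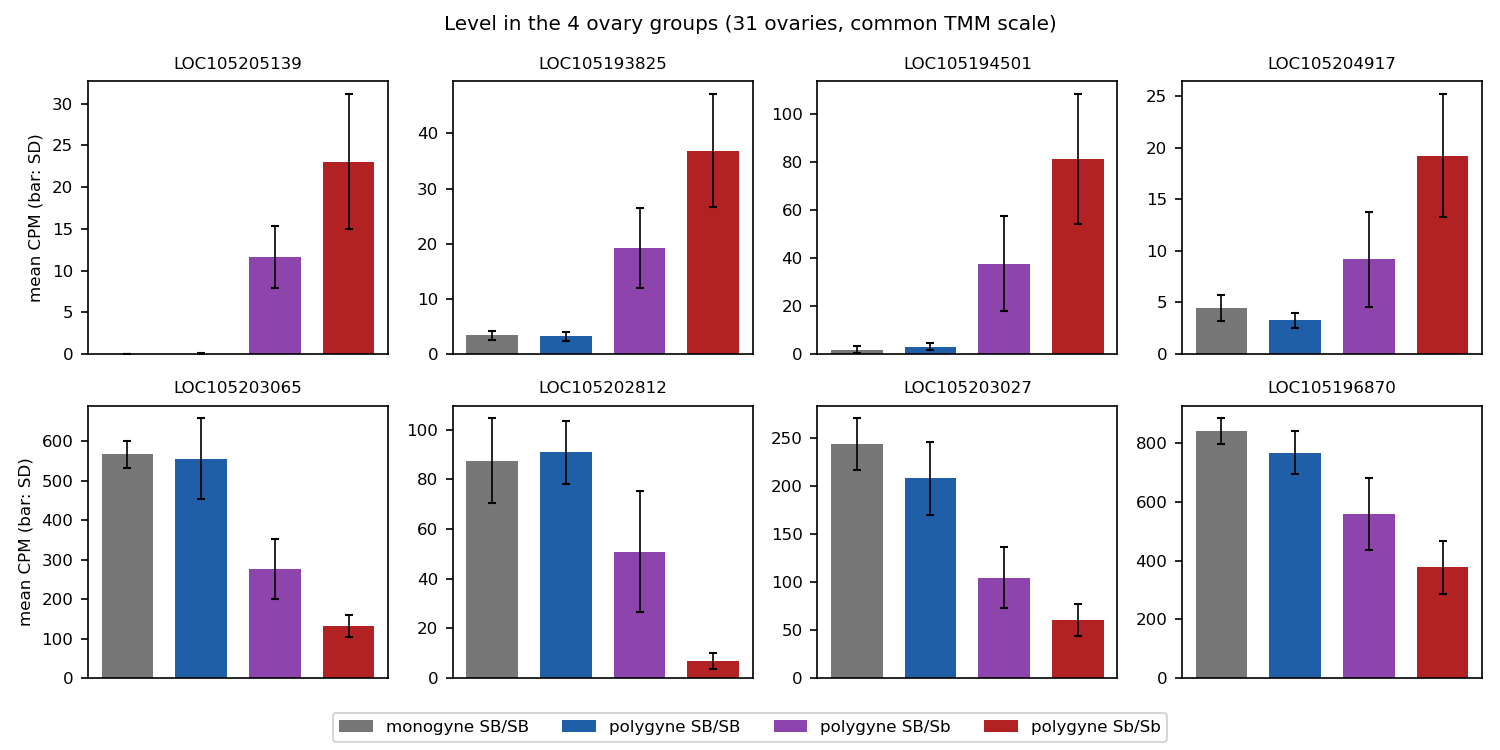
Bars give the mean level (CPM on a TMM scale common to the 31 ovaries, axes from 0) and the error bars the SD in the 4 ovary groups, 8 animals each except 7 polygyne SB/SB. The top row shows 4 genes higher in Sb/Sb and the bottom row 4 genes lower; SB/Sb ovaries stand between polygyne SB/SB and Sb/Sb in every panel.

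A comparison that shares no ovary with the one above set the 8 polygyne SB/Sb ovaries against the 8 monogyne SB/SB ovaries, which differ in social form as well as in Sb. It called 1882 genes higher (18.7% of 10050) and 1178 lower (11.7%). Of the 432 genes higher in Sb/Sb that were tested in both, 299 were also higher in SB/Sb (69.2%, or 15.9% of the other list). Of the 216 lower genes, 118 were also lower (54.6%, or 10%), and 0 were called in opposite directions. The shared higher genes comprised 38 on chromosome 16, 209 on other chromosomes and 52 without a place, and the shared lower ones 27, 85 and 6. Title numbers recur among polygyne animals of all genotypes, and the overlap was not tested. Some of the falls on chromosome 16 were not called there. LOC105199837 averaged 2.99 ± 1.66 CPM in SB/Sb and 3.17 ± 0.92 in monogyne ovaries (log2 -0.07 ± 0.32, adjusted p = 0.881), LOC105199336, whose monogyne level was already below that of polygyne SB/SB, averaged 23.0 ± 10.7 and 21.2 ± 3.0 (log2 0.13 ± 0.23, adjusted p = 0.694) and LOC105193228 averaged 36.9 ± 6.80 and 43.9 ± 7.81 (log2 -0.24 ± 0.15, adjusted p = 0.215). LOC105203065, by contrast, fell by 1.03 ± 0.15 on the log2 scale (adjusted p = 0.000552).

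In the brains of the same 15 animals, 72 genes were higher and 415 lower in Sb/Sb, 487 of 9991 tested (4.87%), so there most calls were lower. The brain counts were not computed under other settings. Whether the effect of genotype differed between the tissues was tested gene by gene, with the animal as a block, and 169 of 11258 genes passed (1.5%), 95 with the larger value in the ovary and 74 with the smaller. A tissue difference below is the estimate of that joint fit and need not equal the gap between the separate estimates. LOC105206510 on chromosome 16 moved in opposite directions. In the ovaries it ran from 41.0 to 89.6 CPM in SB/SB (median 68.9) and from 15.6 to 45.7 CPM in Sb/Sb (median 32.8), a log2 fold change of -1.10 ± 0.23 (adjusted p = 0.0107). In the brains its log2 fold change was 2.16 ± 0.38 (adjusted p = 0.00488), and the difference between the tissues was -3.55 ± 0.43 (adjusted p = 0.000389). The ovary ranges overlapped slightly, at 41.0 to 45.7 CPM.

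The fall of LOC105203065 was found in the ovary, with a brain log2 fold change of 0.13 ± 0.32 (tissue difference -2.33, adjusted p = 0.00221), as were those of LOC105203027 (brain -0.08 ± 0.21, difference -1.71, adjusted p = 0.00426), LOC105196870 (brain 0.33 ± 0.29, difference -1.49, adjusted p = 0.0347) and LOC105192985 (brain 0.30 ± 0.24, difference -1.12, adjusted p = 0.0338). LOC105193825 rose in both tissues and by more in the brain (log2 8.76 ± 0.84, difference -5.17, adjusted p = 0.00292). LOC105202812 fell in both and by more in the brain (log2 -7.09 ± 0.52, difference 3.26, adjusted p = 0.000389). LOC105205791, higher in Sb/Sb ovaries, had a brain log2 fold change of -0.87 ± 0.29 that was not called (difference 1.53, adjusted p = 0.0376). Not all genes with under 0.5 CPM in SB/SB ovaries were called in the brains. LOC105205051 (log2 2.58 ± 0.87, adjusted p = 0.0942) and LOC105207279 (log2 1.85 ± 0.64, adjusted p = 0.105) were not. The brain log2 fold change, called in each case, was 6.63 ± 1.01 for LOC105205139, 7.63 ± 0.71 for LOC105194018, 7.94 ± 0.92 for LOC105204491, 8.31 ± 0.87 for LOC105206713, 5.52 ± 0.83 for LOC105198369 and 8.74 ± 0.88 for LOC105203531. No difference between the tissues was called for any of these genes, but for some of them the test could hardly have called one. With few or no counts in the SB/SB ovaries, the SE of the tissue difference was 5.99 for LOC105206713 and 12063 for LOC105203531. The missing calls are therefore no sign of equal effects.

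Genes that earlier work on these files had named for the brains were followed into the ovaries. That choice was made on brains of the same animals and is not independent of them. Over all genes tested in the ovaries, 4.49% were higher and 2.11% lower in Sb/Sb. Of 9 named as higher in Sb/Sb brains, 8 were tested in the ovaries, where 7 were higher and 1, LOC105206510, was lower. Of these 7, LOC105205139, LOC105206713, LOC105194018, LOC105203531 and LOC105199588 passed the filter on low counts only through their Sb/Sb values. That they were called higher is therefore no result in itself. LOC105193135 on chromosome 16 was at 44.0 ± 6.99 CPM in SB/SB and 116 ± 24.1 in Sb/Sb (log2 1.40 ± 0.15, adjusted p = 5.04e-05). LOC105206832 on chromosome 1 was at 32.4 ± 8.44 and 96.8 ± 41.1 CPM (log2 1.58 ± 0.25, adjusted p = 0.0013), and LOC105199588 on chromosome 8 at 1.18 ± 1.5 and 23.4 ± 12.4 CPM (log2 4.29 ± 0.87, adjusted p = 0.00799). No ovary of a genotype reached into the range of the other for these 3 genes. LOC105207189, which had too few counts for the test, had 0 counts in the SB/SB and 66 in the Sb/Sb ovaries, at least 20.5-fold higher. Of 5 named as lower in the brains, LOC105202812, LOC105199321 and LOC105203076 were lower in the ovaries. LOC105199321 passed the filter only through its SB/SB values, so its call is no result in itself. LOC105203076 went from 116 ± 21.3 to 82.7 ± 12.9 CPM (log2 -0.49 ± 0.13) with an adjusted p of 0.0373, and 4 of the 15 fits that left out an ovary called it. LOC105199343 was at 63.1 ± 8.02 and 38.0 ± 14.7 CPM (adjusted p = 0.0578, and 0.0194 without 19G), and LOC105196490 at 3.96 ± 3.48 and 6.09 ± 8.57 CPM (adjusted p = 0.746).

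**Figure D5:**
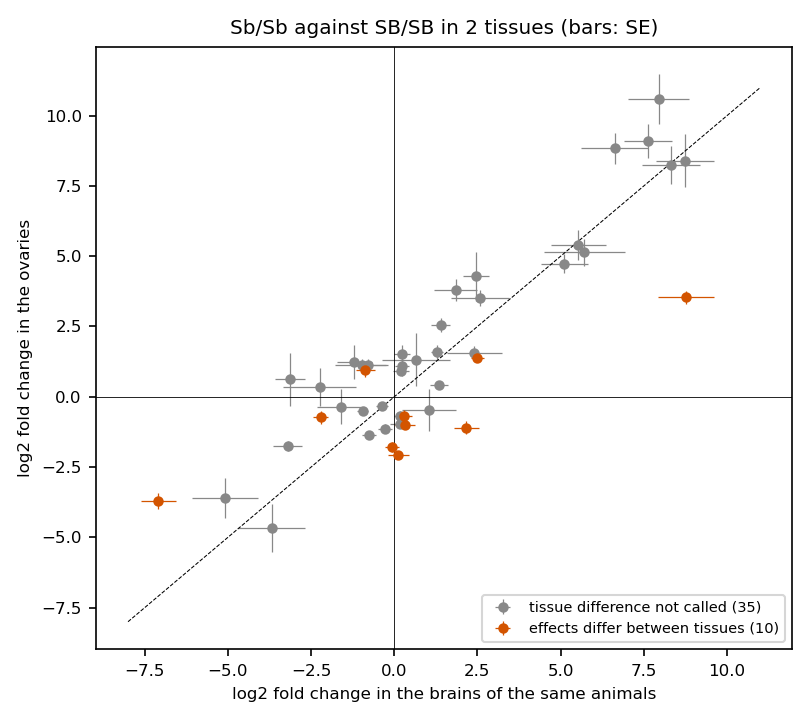
Each point is 1 named gene tested in both tissues, with its log2 fold change, Sb/Sb against SB/SB, in the brains (horizontal) and the ovaries (vertical) of the same 15 animals; bars are SE and the dashed line marks equal effects. The 10 orange points are genes whose effects differed between the tissues at an adjusted p under 0.05 and the 35 grey points are the others; LOC105206510 is the orange point at 2.16 and -1.10.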

How the data were processed

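Per the labels' protocols, ovary RNA was purified with the RNeasy Mini kit and DNase, and libraries followed Smart-seq2. Per the submitters' processing notes, Trimmomatic 0.32, STAR 2.5.3a and featureCounts were used. The sources used here name neither the genome build nor the counting options. Every deposited file holds the raw counts of 1 library for 15710 genes, not normalized by the authors. The 198 transfer RNA genes (0.000151% of the counts) were left out. Each of the 15 ovaries held 10.1 to 20.5 M counts (median 16.1 M).

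Counts were tested with edgeR 4.0.16 in R 4.3.3 on the 15 ovaries alone, with 1 coefficient per genotype. Scaling was by TMM and filtering by filterByExpr with a minimum count of 10. P-values of the quasi-likelihood F-test were adjusted by Benjamini-Hochberg over all tested genes, and genes with an adjusted p under 0.05 were called. The median log2 fold change of all genes was 0.001. The scripts were tested on simulated data. The brains, the tissue difference (animal as a block) and SB/Sb against monogyne SB/SB had fits of their own. Alternatives were RLE scaling, other filters, DESeq2 1.42.0, limma 3.58.1 voom with quality weights, the title number as a block, other sets of libraries and each ovary left out. The thinning to equal depth, the counts without 19G and the comparison of SB/Sb with monogyne ovaries were added after seeing the data.

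Of 15512 LOC symbols, 11895 were in a RefSeq table of the assembly UNIL_Sinv_3.0, 11799 had a chromosome and 970 lay on chromosome 16. A gene's place is its rank by start in that table, which may differ from the authors' build, so no coordinates are given. The table holds no product names. The 9 lists defined by product names (yolk and oocyte, hormones, odorant binding, detoxification, muscle, fat body, hemocytes, trachea, mobile elements) matched 0 genes and the 22 protein signatures were not searched, so RNA of other cell types was not tested by such lists. Synonyms identified 9 genes.

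Genes were named by rule: the 10 higher and 10 lower with the smallest p among called genes without overlap, the 4 with the largest fold and the 4 with the highest level in each direction, the genes with a synonym, and the members of the brain lists and of the chromosome 16 stretches with the smallest p. The members and lists were chosen with earlier results of these data known. Title numbers recur between genotypes. For the 6 numbers held by both, the deviations of the paired ovaries correlated by -0.2 for number 16 and by 0.203 to 0.493 for the others. Of the 12 ovaries, 6 correlated best with the ovary of their own number. No label says what a number marks, so the numbers were not taken to pair the animals in the main fit. The fit with the number as a block is given as an alternative. Nothing in the labels says whether animals with different numbers came from different colonies.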

Additional observations from a re-analysis of the deposited data

Results flagged for a closer look

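Among the named genes, 16 of 94 groups of 7 or 8 ovaries held a value far from the rest of its group; for normal values in independent groups, chance flags about 1 in 20 groups, and these groups share ovaries. The Sb/Sb ovary 19G accounted for 10 of them, each time as the highest. They were 143 CPM for LOC105194501 (next highest 91.3), 11.1 for LOC105206713 (5.56), 136 for LOC105196479 (84.8), 8.73 for LOC105194018 (5.07), 30.1 for LOC105204491 (16.1), 187 for LOC105206832 (116), 25.7 for LOC105196490 (10.6), 23.9 for LOC105195107 (5.25), 392 for LOC105195645 (41.4) and 3092 for LOC105197561 (922). In the SB/SB group, 1E was highest for LOC105206713 (0.0619 CPM, the others 0) and LOC105196479 (5.88, next 2.07) and lowest for LOC105204917 (1.80, next 3.24). In the Sb/Sb group, 15G was highest for LOC105202816 (3.89, next 0.963), 16G for LOC105203076 (110, next 87.3) and 104G for the vitellogenin receptor gene LOC105200757 (672, next 225).

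For 10 named genes the effect of genotype differed between ovary and brain of the same animals, by edgeR's test of the difference. The difference in log2 fold change, ovary minus brain, was estimated in a single fit of both tissues with the animal as a block. It need not equal the gap between the separate estimates. It was -5.17 for LOC105193825, 1.53 for LOC105205791, -2.33 for LOC105203065, 3.26 for LOC105202812 and -1.71 for LOC105203027. For the others it was -1.49 for LOC105196870, -1.12 for LOC105192985, -1.12 for LOC105193135, -3.55 for LOC105206510 and 1.34 for LOC105199343.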

How the results depend on the processing

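With 675 genes called in the comparison as reported, DESeq2 called 1505 (968 higher, 537 lower), voom with quality weights 1961 (1006 and 955) and a fit of all ovary groups 1521 (886 and 635). On chromosome 16 these gave 189, 235 and 186 genes, against 107. The lower genes numbered 138 at a mean count of at least 50, 139 with the replicate block and 121 with 104D added, against 216. Leaving out 1 ovary gave 415 to 1007 genes, 311 to 627 higher and 104 to 406 lower, with 85 to 140 on chromosome 16. The other settings kept the counts within 1.5 times. The replicate block on the title number, in 12 ovaries, gave 383 higher and 139 lower, against 595 and 196 in the same ovaries without it; 6 of the 12 correlated best with the ovary of their own number, a hint from the data that the design does not give. With the block LOC105193214, LOC105199110, LOC105206492 and LOC105203076 were not called (adjusted p = 0.051 to 0.0982).

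Of the 41 called named genes, 33 kept direction and call in every setting that tested them. Direction turned for genes that were not called: LOC105196490 (log2 -0.06 with the block, and -0.256 without 19G to 0.998 without 30E), LOC105195102 (0.56 with voom, 0.052 with the block, and -0.678 without 104G to 0.033 without 1E), LOC105195645 (-0.31 with DESeq2, -0.46 with voom, and -0.331 without 19G to 1.707 without 19D) and LOC105200757 (0.19 with voom, and -1.219 without 104G to -0.057 without 1E). The causes were not tested. Depth limits genes at or near 0: over the SB/SB group, 3 counts correspond to 0.0256 CPM.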
